A study of Mus musculus with 30 samples.

Results

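Fracture callus of diet-induced obese (DIO) mice was compared between d7 and d5 after fracture, using 6 of the 30 callus libraries of the series, chosen by diet and day alone. The 3 libraries of d5 and the 3 libraries of d7 each came from the callus of a different mouse. All mice were male C57BL/6J animals, 20 weeks of age at fracture, with an open osteotomy of the right tibia held by an intramedullary nail. DIO mice were kept on a high-fat diet before and after the fracture, and the lean mice used beside them received the lean control diet. Callus was taken without adjoining soft tissue or unbroken bone, and each library measured polyadenylated RNA of a mixed tissue. In such bulk RNA, fewer cells of a type and less RNA per cell cannot be told apart. The question of the comparison was which genes differ between these days of early callus formation in obese mice, and it covered 16995 of the 43629 genes counted.

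Between these days the callus of a stabilised long bone fracture passes from inflammatory granulation tissue to soft callus. Mesenchymal cells condense and become chondrocytes, which secrete type II collagen and aggrecan and later enlarge and make type X collagen. Cartilage has few vessels, and cells short of oxygen stabilise hypoxia-inducible factors (HIF), which raise the transcription of glucose transporters, glycolytic enzymes and mitochondrial proteins such as BNIP3. Osteoclasts and chondroclasts, which form by fusion of monocyte-lineage cells, later remove the mineralised cartilage.

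Between 14888242 and 22248585 reads per library were counted on genes. Cartilage and bone marker genes were present in all 6 libraries, with Col2a1 between 5121 and 26800.5 CPM (reads counted on the gene, scaled to a common library size) and Col1a1 between 15984 and 31875 CPM. Haemoglobin genes took 0.675% of the counts in replicate 3 of d7, against 0.0366% to 0.134% in the other 5 libraries, and genes of adult skeletal muscle took 1.23% to 3.43% of the counts with overlap between the days. On the first principal component of the 6 libraries, which held 37.0% of the variance, the days overlapped, since replicate 2 of d7 scored -8.45 and replicate 1 of d5 scored -3.79.

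In DIO callus, 3 genes rose from d5 to d7 and 0 fell at a Benjamini-Hochberg adjusted p under 0.05 (edgeR quasi-likelihood test), which is 0.0177% of the genes tested. The 3 genes were 2610528A11Rik, Adgrg6 and Bnip3. At an unadjusted p under 0.05, 1446 genes had a higher level on d7 (8.51%) and 965 a lower one (5.68%). All 3 libraries of d7 lay above all 3 of d5 for 1581 genes (9.3%) and below them for 1534 genes (9.03%). DESeq2 called 251 genes higher (1.48%) and 85 lower (0.5%) with the same 18 DIO libraries in the fit. The number of calls also depended on single libraries. The edgeR test called 236 genes without replicate 2 of d7, 15 without replicate 1 of d5, 6 without replicate 3 of d7, and 0 without replicate 2 of d5, replicate 3 of d5 or replicate 1 of d7, where 1525 to 2220 genes had an unadjusted p under 0.05. The median log2 fold change over all genes tested was 0.02.

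2610528A11Rik (ENSMUSG00000096001, chromosome 14 from 37102140 to 37114022, minus strand), which encodes a small secreted ligand of the chemoattractant receptor GPR15, had 0.625, 0.418 and 0.225 CPM on d5 and 7.31, 4.78 and 7.6 CPM on d7. Every d7 library lay above every d5 library. The gene passed the filter on low counts through its d7 libraries alone, as did 173 of the genes tested (1.02%), so it was tested only because it was high on d7, and its level on the other days rests on few reads. The rise was 15-fold (log2 fold change 3.91, SE 0.52, edgeR adjusted p = 0.013). In the 15 DIO libraries of the other 5 days the gene lay between 0.153 and 0.767 CPM, so no library of another day came near those of d7. Its level in lean callus was 0.235, 0.179 and 0.285 CPM on d5 and 0.41, 0.299 and 0.343 CPM on d7, too low to pass the filter of the lean fit. Replicate 1 of lean d10 reached 3.26 CPM. The difference between the diets had an unadjusted p of 0.0064 and did not pass the test (edgeR adjusted p = 0.993).

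Adgrg6 (ENSMUSG00000039116, chromosome 10 from 14402583 to 14545659, minus strand) encodes GPR126, an adhesion G protein-coupled receptor known for its part in Schwann cell myelination and in cartilage and spine development. Its level was 13.1, 13.5 and 8.17 CPM on d5 and 32.7, 31.1 and 26.2 CPM on d7, and the days did not overlap. It rose 2.59-fold (log2 fold change 1.37, SE 0.21, edgeR adjusted p = 0.0319), and the 15 other DIO libraries reached at most 14.3 CPM. In lean callus it had 8.0, 7.53 and 10.1 CPM on d5 and 11.6, 10.1 and 20.7 CPM on d7, with a log2 fold change of 0.72 (SE 0.40) that did not pass the test (edgeR adjusted p = 0.91). Replicate 1 of lean d10, the library that was also high for 2610528A11Rik, had 36.3 CPM, above every DIO library of d7.

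Bnip3 (ENSMUSG00000078566, chromosome 7 from 138890836 to 138909519, minus strand), which encodes a protein of the outer mitochondrial membrane that promotes mitophagy, had 37.2, 44.9 and 30.4 CPM on d5 and 96.5, 108 and 75.5 CPM on d7. All d7 libraries lay above all d5 libraries and above the 44.9 CPM that was the most in any DIO library of another day. The rise was 2.49-fold (log2 fold change 1.31, SE 0.21, edgeR adjusted p = 0.0422). In lean callus the level was 28.8, 19.2 and 20.7 CPM on d5 and 26.5, 20.5 and 25.7 CPM on d7, with no rise past the test (log2 fold change 0.07, SE 0.25, edgeR adjusted p = 0.988). The DIO change exceeded the lean one by 1.24 on the log2 scale (SE 0.31, unadjusted p = 0.00072), which did not pass the test over all genes (edgeR adjusted p = 0.647). Gm45507 overlaps 22.3% of the Bnip3 gene on the opposite strand, and the strand setting of the read counting is not given in the sources used here, so reads of the pair may not be told apart. The same holds for Adgrg6 (Gm46212, 3.61% of the gene), and for Ankrd37 (Lrp2bp), Higd1a (Gm47112), Fam162a (Wdr5b), P3h2 (Gm4524) and Slc2a1 (Gm12868), whose values follow.

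**Figure D1:**
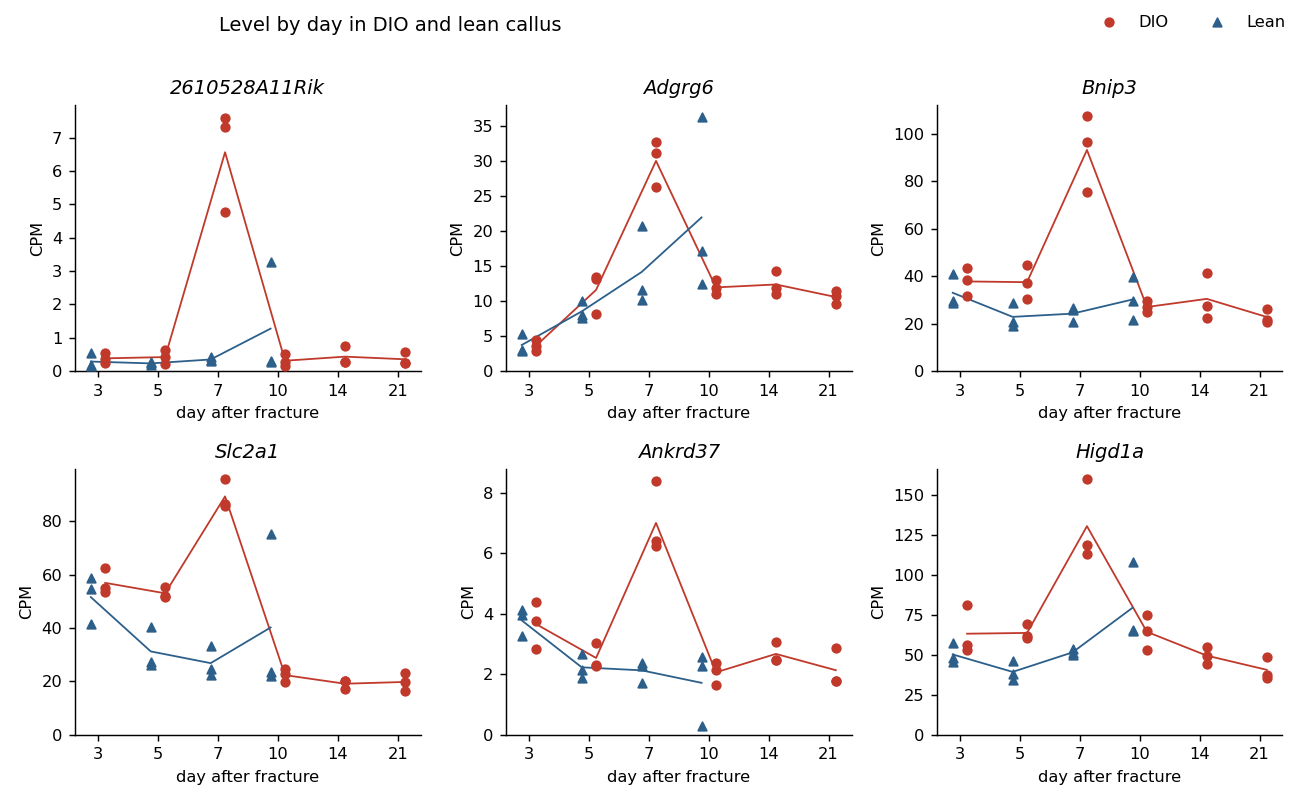
Level in CPM (y axis) by day after fracture (x axis, days spaced evenly) of the 3 genes that rose and of Slc2a1, Ankrd37 and Higd1a, with 1 point per library in DIO (circles) and lean (triangles) callus and lines through the means of each day. In each panel the 3 DIO points of d7 stand above all other DIO points. Lean points end at d10.

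Bnip3 belongs to a list of 30 genes of glycolysis and the hypoxia response. Of its 30 genes, 28 had a higher mean level on d7 (52.0% of all genes), 1 passed the test (Bnip3) and 16 had all d7 libraries above all d5 libraries, against 9.3% of all genes. Its median log2 fold change was 0.44, and stayed between 0.37 and 0.48 when any 1 library was left out. The mean log2 CPM over the list was 6.45, 6.40 and 6.36 on d5 and 6.96, 6.85 and 6.94 on d7. The spread within each day was smaller than the gap between the days. DESeq2 called 6 of the 30 genes higher (1.48% of all genes) and 0 lower.

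Glucose enters the cell through transporters and leaves glycolysis as lactate. Slc2a1 (ENSMUSG00000028645, chromosome 4 from 119108711 to 119137983, plus strand), which encodes the glucose transporter GLUT1, had 55.5, 51.5 and 52 CPM on d5 and 95.7, 85.7 and 86.5 CPM on d7. Its days were far apart with little spread, yet it missed the threshold (log2 fold change 0.75, SE 0.14, edgeR adjusted p = 0.0525). In lean callus of d10 it reached 75.4 CPM in replicate 1, against 23.3 and 21.9 CPM in the other libraries of that day. Slc16a3, which encodes the lactate exporter MCT4, had 107, 115 and 121 CPM on d5 and 176, 183 and 180.1 CPM on d7 (log2 fold change 0.65, SE 0.25). For Slc2a3, the transporter GLUT3, the days overlapped at 19 to 42.6 CPM on d5 and 21.3 to 75.4 CPM on d7.

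Several enzymes of glycolysis had the days in the same order without passing the test. Pgk1, phosphoglycerate kinase, had 203, 258 and 210.1 CPM on d5 and 334, 487 and 309.6 CPM on d7 (log2 fold change 0.75, SE 0.21). Eno1, enolase, had 637, 695 and 724 CPM on d5 and 773, 1194 and 924 CPM on d7 (0.49, SE 0.19). Aldoc, an aldolase, ranged over 5.64 to 9.2 CPM on d5 and 15.7 to 22.3 CPM on d7. For the phosphofructokinases, Pfkp ranged over 52.4 to 56.7 CPM on d5 and 71.9 to 85 CPM on d7. Pfkl ranged over 101 to 114 CPM on d5 and 141 to 188 CPM on d7. In Aldoc, Pfkp, Pfkl, Pgk1 and Eno1 no library of d5 reached the lowest of d7. Ldha, lactate dehydrogenase A, had a log2 fold change of 0.41 (SE 0.22), and Gapdh, Hk1 and Pgam1 had 0.19, 0.16 and 0.09, each smaller than its SE.

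Ankrd37 (ENSMUSG00000050914, chromosome 8 from 45996902 to 46005707, minus strand), an ankyrin repeat gene known as a HIF target, had 3.04, 2.27 and 2.31 CPM on d5 and 6.23, 8.39 and 6.39 CPM on d7 (log2 fold change 1.46, SE 0.28, edgeR adjusted p = 0.0525). Car9, the carbonic anhydrase induced in hypoxic cells, had 4.69, 4.6 and 3.78 CPM on d5 and 5.79, 15 and 14.2 CPM on d7 (log2 fold change 1.42, SE 0.46), where replicate 1 of d7 stood close to d5. The days did not overlap for either gene. Higd1a and Fam162a, mitochondrial proteins induced by hypoxia that are not on the list, were among the 10 smallest p values of the genes that were higher on d7. Higd1a had 60.3, 69.2 and 61.5 CPM on d5 and 119, 160.0 and 113 CPM on d7 (log2 fold change 1.03, SE 0.19, edgeR adjusted p = 0.0525). In lean callus of d10 Higd1a had 108 CPM in replicate 1, against 65.2 and 65.0 CPM in the other libraries of that day. Fam162a had 68.1, 71.4 and 61.2 CPM on d5 and 119.5, 171 and 102 CPM on d7 (log2 fold change 0.97, SE 0.18, edgeR adjusted p = 0.0525). Vegfa, the vascular growth factor that HIF also induces, had 193, 115 and 158 CPM on d5 and 188, 119 and 154 CPM on d7, with overlapping days and a log2 fold change of -0.02 (SE 0.24).

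Over the course of healing, the list had its highest mean level in DIO callus on d7. Averaged over the list, log2 CPM was 6.58 on d3, 6.41 on d5, 6.91 on d7, 6.10 on d10, 5.96 on d14 and 5.83 on d21. For 8 of the 30 genes all d7 libraries lay above all 15 other DIO libraries, as they did for 280 of all genes tested (1.65%). These 8 genes were Bnip3, Slc2a1, Ankrd37, Aldoc, Pfkp, Pfkl, Pgk1 and P4ha2.

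**Figure D2:**
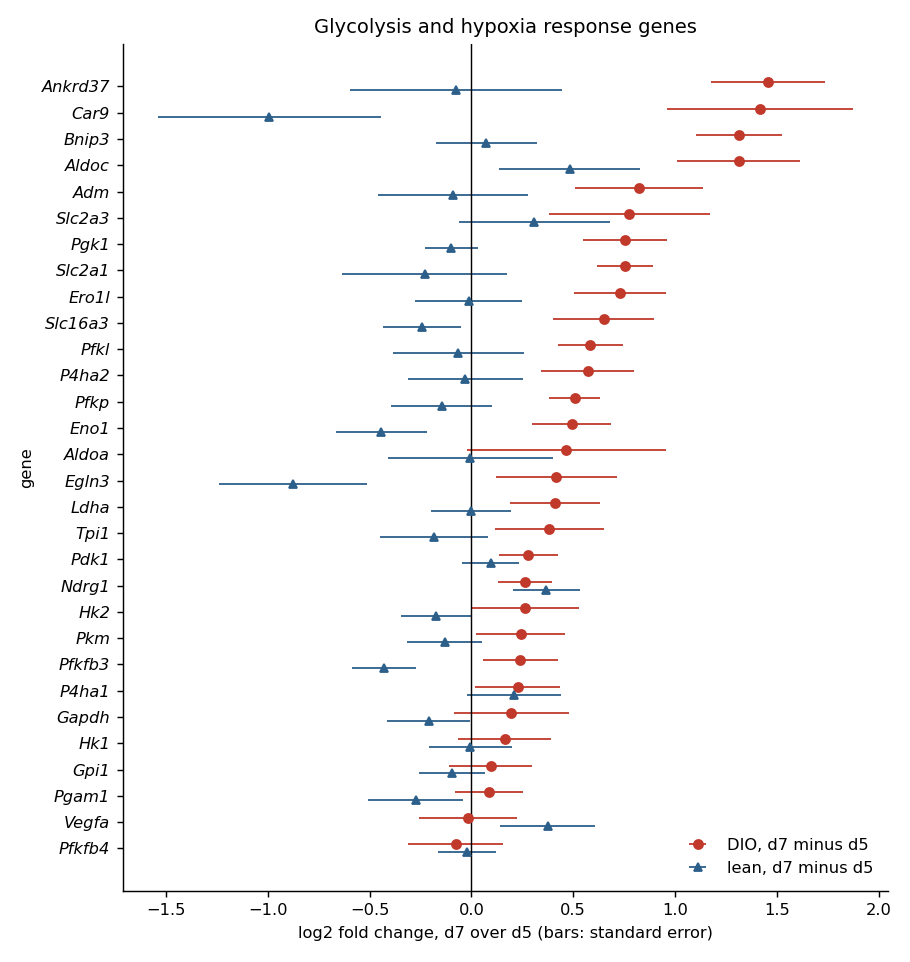
Log2 fold change of d7 over d5 (x axis, bars give the SE) for each of the 30 glycolysis and hypoxia response genes (y axis), in DIO (circles) and lean (triangles) callus. In DIO 28 of the 30 points lie right of 0, and in lean 7 of 30 do.

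In lean callus no gene of 16471 tested passed the edgeR test between the same days, 926 had an unadjusted p under 0.05 (5.62%, with 2.22% higher and 3.4% lower on d7) and DESeq2 called 33. There 50.6% of genes had a higher mean on d7, 6.67% lay higher without overlap and 7.32% lower. Of the glycolysis and hypoxia list, 7 of the 30 genes had a higher mean on d7 and the median log2 fold change was -0.08. The test of the difference between the diets gave an unadjusted p under 0.05 for 11 of the 30 genes with the DIO change above the lean one and for 0 with it below, against 1.89% and 1.91% of all genes tested. After adjustment over all genes, 0 of the list passed (edgeR quasi-likelihood test). Among the 11 were Bnip3 (difference 1.24), Pgk1 (0.85, unadjusted p = 0.00149), Slc16a3 (0.89, unadjusted p = 0.00207), Eno1 (0.93, unadjusted p = 0.00353) and Car9 (2.41, unadjusted p = 0.0064).

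The promoters of the list members with the smallest p values are shown because HIF binds the letters ACGTG. The motif was chosen after the values had been seen, and it also lies inside the E-box CACGTG bound by other factors. The sequences are the 250 bases before the RefSeq start of each gene on GRCm38.p6, written 5′ to 3′ on the strand of the gene, with each match to ACGTG or its complement CACGT in capitals.
Bnip3, chr7:138909507-138909756, minus strand: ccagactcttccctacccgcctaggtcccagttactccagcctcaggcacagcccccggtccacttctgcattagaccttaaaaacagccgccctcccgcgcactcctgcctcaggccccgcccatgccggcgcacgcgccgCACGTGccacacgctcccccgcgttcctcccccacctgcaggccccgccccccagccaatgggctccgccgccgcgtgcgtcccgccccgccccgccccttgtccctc
Slc2a1, chr4:119108495-119108744, plus strand: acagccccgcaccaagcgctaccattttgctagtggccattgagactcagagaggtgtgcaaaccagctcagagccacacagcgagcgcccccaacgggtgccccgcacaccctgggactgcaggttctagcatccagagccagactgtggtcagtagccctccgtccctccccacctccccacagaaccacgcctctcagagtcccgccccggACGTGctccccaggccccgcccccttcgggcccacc
Ankrd37, chr8:45999851-46000100, minus strand: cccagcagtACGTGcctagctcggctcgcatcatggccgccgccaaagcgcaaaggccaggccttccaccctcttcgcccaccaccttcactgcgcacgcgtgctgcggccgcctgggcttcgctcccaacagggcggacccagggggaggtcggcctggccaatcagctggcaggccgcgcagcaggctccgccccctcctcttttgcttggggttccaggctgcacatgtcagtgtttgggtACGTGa
Bnip3 held 1 stretch that matched on both strands, starting 108 bases before the start, Slc2a1 held 1 match 36 bases before it and Ankrd37 held 2, at 241 and 6 bases. The RefSeq start of each of these genes lies inside its GENCODE gene. The printed window therefore overlaps that gene in part for Bnip3 and Slc2a1 and in full for Ankrd37. The Slc2a1 match spans the GENCODE start. In windows of 250 bases before to 50 after the start, 19 of the 27 list genes with a RefSeq promoter held the motif (70.4%), against 3345 of 12056 genes tested (27.7%). The list was chosen as genes of glycolysis and the hypoxia response, so this share describes its membership and not its change from d5 to d7. Among the 10 genes with the smallest p in each direction, the motif stood in 5 of 10 promoters of genes higher on d7. For those lower on d7, it stood in 2 of the 5 genes with a RefSeq promoter. A match describes the letters of the window and not the binding of a factor.

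Cartilage matrix genes had the largest median fold change after erythroid genes. All 22 genes of this list had a higher mean on d7 (52.0% of all genes), 15 without overlap between the days (9.3% of all genes), and 0 passed the test (edgeR), 16 having an unadjusted p under 0.05 (8.51% of all genes). DESeq2 called 1 of them (1.48% of all genes). One of the 22, Mia, passed the filter on low counts through its d7 libraries alone, so it had to be higher. The median log2 fold change was 1.53, and 1.23 to 1.76 with 1 library left out. The mean log2 CPM over the list was 7.28, 7.18 and 6.42 on d5 and 8.85, 7.97 and 8.95 on d7, so that replicate 3 of d5 was the lowest of its day and replicate 2 of d7 the lowest of its own. In lean callus 20 of 21 genes tested had a higher mean on d7, 0 without overlap (6.67% of all genes there), with a median of 0.87. The difference between the diets had an unadjusted p under 0.05 for 0 of the 22 genes (edgeR), against 3.79% of all genes.

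Ucma, a small matrix protein of young cartilage, had 14.1, 35 and 8.17 CPM on d5 and 176, 195 and 270.0 CPM on d7. Every d7 library was at least at 176 CPM, and no library of another DIO day exceeded 35 CPM (log2 fold change 3.49, SE 0.82, edgeR adjusted p = 0.079). Epyc, the cartilage proteoglycan epiphycan, had 0.714, 0.956 and 0.0564 CPM on d5 and 14.2, 6.4 and 9.28 CPM on d7 (log2 fold change 4.1, SE 0.86, edgeR adjusted p = 0.0658), and Gm10754 lies on the opposite strand over 40.6% of its length. Mia, which marks chondrocytes, ranged over 0 to 0.179 CPM on d5 and 0.662 to 1.51 CPM on d7.

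The major collagens of cartilage varied more between mice. Col2a1, the chain of type II collagen, had 10384, 7835 and 5121 CPM on d5 and 22059.5, 9514 and 26800.5 CPM on d7, so replicate 2 of d7 lay below replicate 1 of d5 (log2 fold change 1.32, SE 0.79, edgeR adjusted p = 0.466). Acan, the core protein of aggrecan, had 1745, 1561 and 1111 CPM on d5 and 3134, 2285 and 3859.7 CPM on d7 without overlap (log2 fold change 1.07, SE 0.63, edgeR adjusted p = 0.46). Col9a1, Col9a2 and Col9a3, the chains of type IX collagen on the surface of its fibrils, had log2 fold changes of 1.57 (SE 0.67), 1.8 (SE 0.79) and 1.75 (SE 0.77), none with overlap. In 13 of the 22 genes all d7 libraries exceeded every other DIO library, against 1.65% of all genes, and the list mean was 3.42 log2 CPM on d3, 5.99 on d10 and 3.09 on d21.

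Among chondrocyte regulators and hypertrophy genes, 19 of 22 had a higher mean on d7, 8 without overlap (9.3% of all genes). One of the 22, Nkx3-2, passed the filter through its d7 libraries alone. The median log2 fold change was 0.49, and ran from 0.30 without replicate 1 of d7 to 0.68 without replicate 2 of d7. Sox9, the factor that establishes the chondrocyte fate, had 86.6, 96.3 and 72 CPM on d5 and 149, 160.4 and 166 CPM on d7 (log2 fold change 0.90, SE 0.30, edgeR adjusted p = 0.189). The days did not overlap and the d7 libraries lay within a narrow range. Scin, the actin-severing protein scinderin found in hypertrophic chondrocytes, had 31.4, 31.8 and 17.7 CPM on d5 and 83.6, 62.5 and 56.8 CPM on d7 (log2 fold change 1.33, SE 0.24, edgeR adjusted p = 0.0525).

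Col10a1, the collagen of hypertrophic cartilage, had 1036, 657 and 271 CPM on d5 and 5685, 1437 and 1676 CPM on d7, so the days did not overlap but replicate 1 of d7 stood well above the other 2 (log2 fold change 2.16, SE 0.91, edgeR adjusted p = 0.295). Ihh, the hedgehog ligand of prehypertrophic chondrocytes, had 98.8, 47.4 and 30.9 CPM on d5 and 234, 82.5 and 182 CPM on d7 with overlap (log2 fold change 1.49, SE 0.62, edgeR adjusted p = 0.285). Gli1 and Ptch1, targets of hedgehog signalling, had log2 fold changes of -0.33 (SE 0.34) and 0.23 (SE 0.26). Runx2, which drives both hypertrophy and bone formation, had 109, 101 and 105 CPM on d5 and 95, 62.4 and 79.2 CPM on d7 (log2 fold change -0.41, SE 0.21, edgeR adjusted p = 0.401), with every d7 library below every d5 library.

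Chondrocytes sulfate the sugar chains of aggrecan and modify and crosslink their collagen. Of 30 genes of glycosaminoglycan synthesis, 7 lay higher on d7 without overlap (9.3% of all genes) and 3 lower (10.0%, against 9.03% of all genes), with a median log2 fold change of 0.22. Papss2, which makes the sulfate donor PAPS, had 139, 164 and 100.5 CPM on d5 and 280.5, 307 and 248 CPM on d7 (log2 fold change 1.05, SE 0.20, edgeR adjusted p = 0.0525). Slc35d1, which carries UDP-sugars into the endoplasmic reticulum, ranged over 33.9 to 52.8 CPM on d5 and 65.2 to 88.2 CPM on d7 (log2 fold change 0.81, SE 0.17, edgeR adjusted p = 0.060), and Slc26a2, the sulfate transporter of chondrocytes, over 136 to 165 CPM on d5 and 192 to 289 CPM on d7 (log2 fold change 0.64, SE 0.19, edgeR adjusted p = 0.142).

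Of 28 collagen processing enzymes, 10 lay higher on d7 without overlap (9.3% of all genes) and 0 lower (9.03%), with a median of 0.15. P3h2, a prolyl 3-hydroxylase, had 66.7, 57.8 and 48.4 CPM on d5 and 128, 123 and 115 CPM on d7 (log2 fold change 1.08, SE 0.21, edgeR adjusted p = 0.0525), and Loxl2, a collagen crosslinking oxidase, 291, 239 and 272 CPM on d5 and 408, 502 and 333 CPM on d7 (log2 fold change 0.63, SE 0.20, edgeR adjusted p = 0.171). In P3h2, Loxl2, Plod2, P4ha2 and 5 more of the 28 genes, all d7 libraries exceeded all other DIO libraries (1.65% of all genes). Fn1, which encodes fibronectin, ranged over 4802 to 5042 CPM on d5 and 7052 to 10689 CPM on d7 (log2 fold change 0.85, SE 0.26, edgeR adjusted p = 0.156), while the 29 genes of fibrous and provisional matrix had a median of -0.0020, from -0.11 without replicate 2 of d7 to 0.11 without replicate 3 of d7.

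**Figure D3:**
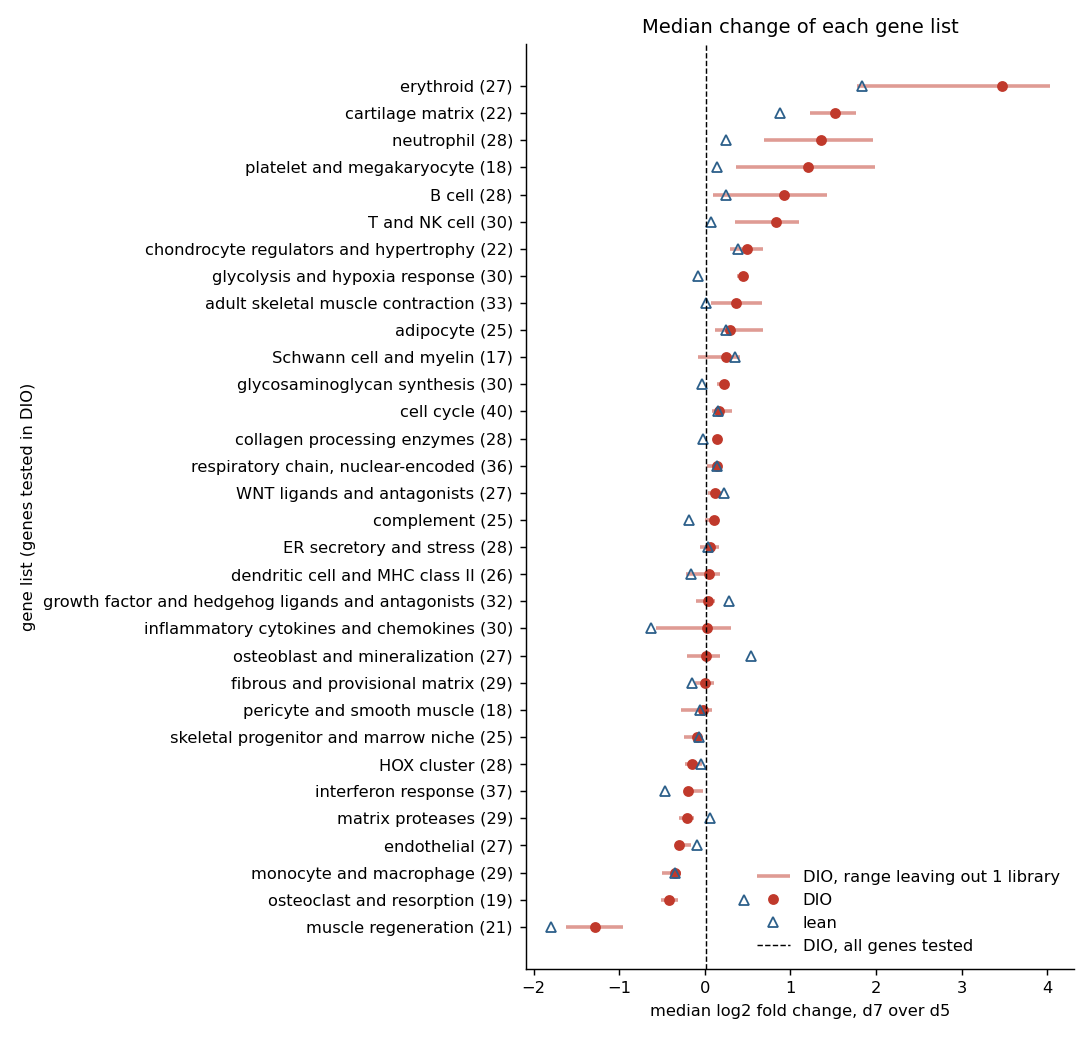
Median log2 fold change of d7 over d5 (x axis) of each of the 32 gene lists (y axis, with the number of genes tested) in DIO (circles, with a bar for the range when 1 library is left out) and lean (open triangles) callus, beside the DIO median of all genes (dashed line, 0.02). Erythroid and cartilage matrix genes lie farthest right, and muscle regeneration genes farthest left.

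Erythroid genes had the largest median of all 32 lists, and its size depended on 1 library. All 27 genes tested had a higher mean on d7, 18 without overlap (9.3% of all genes), 0 passed the edgeR test, 24 had an unadjusted p under 0.05 (8.51% of all genes) and DESeq2 called 20 higher (1.48%). The median log2 fold change was 3.47, and 1.77 without replicate 3 of d7. Averaged over the list, log2 CPM was 2.99, 1.43 and 1.75 on d5 and 4.39, 3.36 and 6.68 on d7. Replicate 3 of d7 stood far above all others, and replicate 1 of d5 stood above the other d5 libraries. In lean callus 26 of 27 genes had a higher mean on d7, 14 without overlap (6.67% of all genes there), with a median of 1.84. The difference between the diets had an unadjusted p under 0.05 for 0 of the 27 genes (edgeR), against 3.79% of all genes.

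Klf1, the master transcription factor of red cell maturation, had 0.759, 0 and 0 CPM on d5 and 2.9, 3.02 and 44.2 CPM on d7 (log2 fold change 5.82, SE 1.14, edgeR adjusted p = 0.0544). Hbb-bs, an adult beta-globin, had 387, 242 and 324 CPM on d5 and 899, 527 and 4274 CPM on d7 (log2 fold change 2.58, SE 0.63, edgeR adjusted p = 0.0885). In both genes the 2 lower d7 libraries also lay above d5, by a smaller margin. Hbb-bs and its neighbour Hbb-bt share most of their sequence, so the split of their counts is uncertain. Of the 20 erythroid genes with a RefSeq promoter, 10 held AGATAA or its complement TTATCT, the letters that GATA factors bind, against 8.31% of genes tested. This motif too was chosen after the values had been seen. The list was chosen as erythroid genes, so the share describes the list and not its change from d5 to d7. Car2, a carbonic anhydrase of red cells as well as osteoclasts, followed the same libraries at 17.9, 9.44 and 12.1 CPM on d5 and 43.5, 31 and 261 CPM on d7.

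Other blood cell lists also had positive medians. Of 28 neutrophil genes 27 had a higher mean on d7, while 3 had no overlap (10.7%, near the 9.3% of all genes), and the median was 1.36 (0.70 without replicate 3 of d7). None of the 28 passed the edgeR test, while 24 were higher at an unadjusted p under 0.05 (8.51% of all genes). DESeq2 called 2 of them higher (1.48% of all genes). S100a8, a subunit of calprotectin, had 683, 236 and 161 CPM on d5 and 1146, 517 and 1880.0 CPM on d7, where replicate 1 of d5 exceeded replicate 2 of d7. Platelet and megakaryocyte genes had a median of 1.21 (0.36 without replicate 3 of d7 to 1.99 without replicate 1 of d5) and B cell genes one of 0.92 (0.095 without replicate 3 of d7 to 1.43 without replicate 1 of d5). Of 28 B cell genes tested, 21 had a higher mean on d7, 4 without overlap (14.3%, against 9.3% of all genes). A lower mean was found for 6, 2 without overlap (7.14%, against 9.03% of all genes). Igkc, the kappa light chain constant region, had 36.5, 24.2 and 13.8 CPM on d5 and 158, 53.7 and 383 CPM on d7. The haemoglobin share of replicate 3 of d7 moved with these lists, and its part in them was not tested.

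Genes of T and NK cells had few counts. Cd3e, a chain of the T cell receptor complex, had 0.179, 0 and 0.451 CPM on d5 and 0.378, 0.147 and 0.874 CPM on d7, and the 30 genes tested had a median of 0.84 (0.35 without replicate 3 of d7). Ptprc, the leukocyte antigen CD45, had 71.7, 76.5 and 71.7 CPM on d5 and 76.4, 55.4 and 80.3 CPM on d7, with a log2 fold change of -0.05 (SE 0.25).

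**Figure D4:**
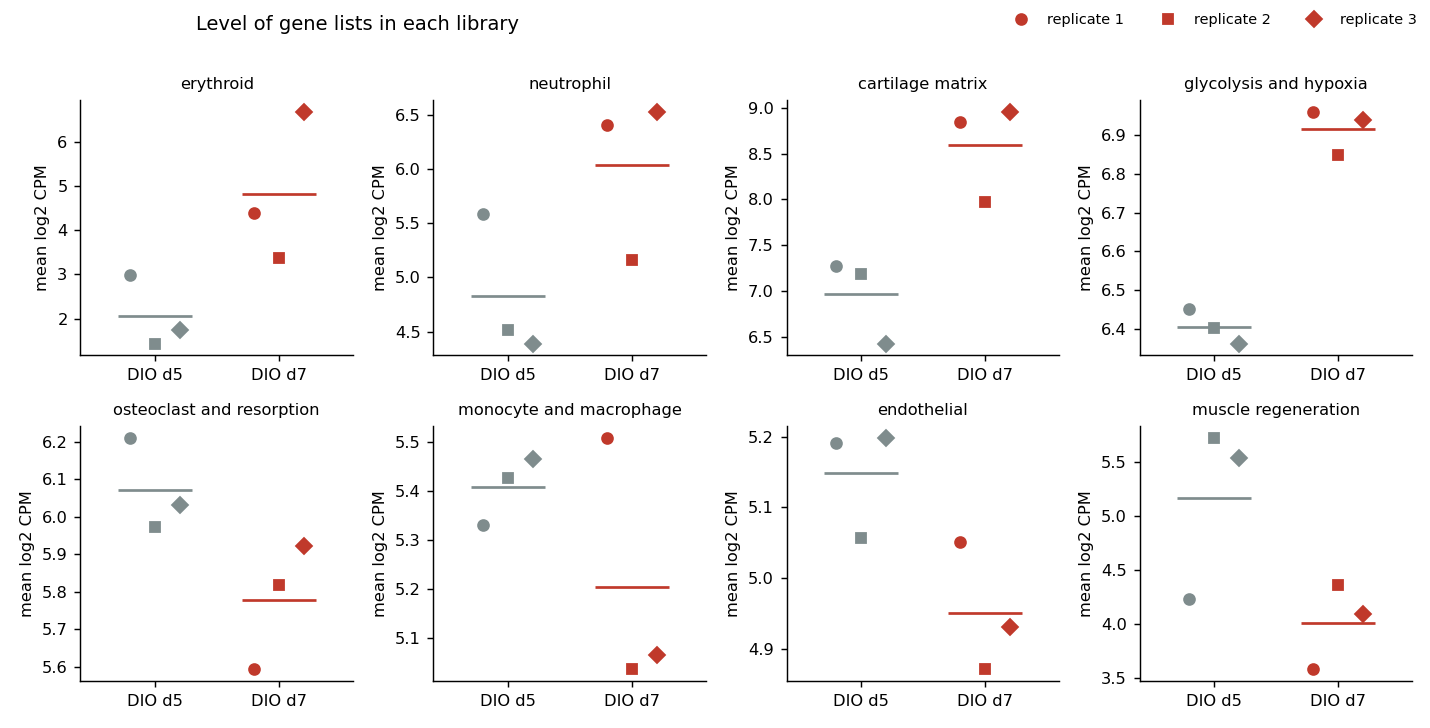
Mean log2 CPM over 8 gene lists (y axis, each panel on its own scale) in the 3 libraries of DIO d5 (grey) and of DIO d7 (red), with the replicate number given by the symbol and a line at the mean. The days do not overlap for erythroid, cartilage matrix, glycolysis and hypoxia, osteoclast and endothelial genes, and they overlap for neutrophil, monocyte and macrophage and muscle regeneration genes.

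Muscle regeneration genes had the lowest median of all lists. Of 21 genes tested 19 had a lower mean on d7, 6 without overlap against 9.03% of all genes, 0 passed the edgeR test and 11 had an unadjusted p under 0.05 (5.68% of all genes). The median log2 fold change was -1.28, and -1.80 in lean callus, where 0 of 21 genes had a higher mean on d7. Mymk, the membrane protein myomaker needed for myoblast fusion, had 22.6, 78 and 63.7 CPM on d5 and 8.0, 14.6 and 13.6 CPM on d7 (log2 fold change -2.18, SE 0.61, edgeR adjusted p = 0.126). Myh3, the embryonic myosin heavy chain, had 97.8, 589.6 and 414 CPM on d5 and 28.5, 123 and 79.3 CPM on d7, with replicate 1 of d5 below replicate 2 of d7 (log2 fold change -2.26, SE 0.77, edgeR adjusted p = 0.212). Myod1, the myogenic determination factor, ranged over 13.4 to 40.9 CPM on d5 and 6.68 to 12.7 CPM on d7. Replicate 1 of d5 was low for all 3 genes.

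Genes of adult muscle contraction did not share this direction. Their 33 members had a median of 0.36 (0.073 without replicate 1 of d7 to 0.67 without replicate 2 of d7). Acta1, skeletal muscle actin, had 2549, 5129 and 3895 CPM on d5 and 5352, 2074 and 3780.2 CPM on d7, and its days overlapped fully (log2 fold change -0.05, SE 0.81, edgeR adjusted p = 0.989).

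Osteoclast genes had mostly lower means on d7 in DIO callus. Of 19 genes 17 had a lower mean, 8 without overlap against 9.03% of all genes, 0 passed the edgeR test, 7 had an unadjusted p under 0.05 (5.68%), and DESeq2 called 2 lower (0.5%) and 1 higher (1.48%). The median was -0.42, between -0.51 and -0.31 with 1 library left out. The 2 genes with a higher mean were Car2, described with the erythroid genes, and Itgb3 (log2 fold change 0.08, SE 0.30), an integrin that platelets also carry. The list mean was 6.21, 5.97 and 6.03 on d5 and 5.59, 5.82 and 5.92 on d7 in log2 CPM.

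Oscar (ENSMUSG00000054594, chromosome 7 from 3609813 to 3616157, minus strand), a costimulatory receptor of osteoclasts, had 24.8, 16.3 and 22 CPM on d5 and 9.38, 12.2 and 10.4 CPM on d7 in DIO callus, all d7 libraries lying below all d5 libraries (log2 fold change -0.99, SE 0.21, edgeR adjusted p = 0.060). In lean callus it had 13.8, 11.3 and 13.4 CPM on d5 and 36, 38.3 and 25.5 CPM on d7, in the opposite order and again without overlap (log2 fold change 1.36, SE 0.24, edgeR adjusted p = 0.28). The difference between these changes was -2.35 on the log2 scale (SE 0.33, edgeR adjusted p = 0.00827), and Oscar was the 1 gene of 17057 tested whose difference passed (0.00586%). No gene passed without replicate 1 of DIO d7 or without replicate 2 of lean d5, where 744 and 448 genes had an unadjusted p under 0.05 (edgeR). At an unadjusted p under 0.05 the difference was lower in DIO for 11 of 19 osteoclast genes and higher for 0, against 1.91% and 1.89% of all genes.

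Acp5, the phosphatase TRAP, had 906, 561 and 631 CPM on d5 and 388, 663 and 555 CPM on d7 in DIO callus and 521, 577 and 634 CPM on d5 and 1577, 1738 and 1099 CPM on d7 in lean callus. The DIO days overlapped, while every lean d7 library lay above every lean d5 library. The difference between the diets was -1.73 (SE 0.33, edgeR adjusted p = 0.12). Ctsk, the collagenase cathepsin K, had 1049, 849 and 824 CPM on d5 and 488, 945 and 599 CPM on d7 in DIO callus, with a difference of -1.51 from lean (SE 0.35, edgeR adjusted p = 0.363), and Mmp9 had 1040.5, 737 and 782 CPM on d5 and 590.1, 550.5 and 798 CPM on d7, with a difference of -1.35 (SE 0.35, edgeR adjusted p = 0.661).

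Tnfrsf11a, the receptor RANK that starts osteoclast formation, had 22.5, 24.3 and 32 CPM on d5 and 18.5, 14.7 and 11.6 CPM on d7 in DIO callus without overlap (log2 fold change -0.81, SE 0.19, edgeR adjusted p = 0.0784). Dcstamp and Ocstamp mediate the fusion of precursors. Dcstamp ranged over 13 to 22 CPM on d5 and 7.24 to 15.2 CPM on d7, with overlap. Ocstamp ranged over 21.3 to 31.9 CPM on d5 and 11.3 to 18.2 CPM on d7, without overlap. The genes with the next smallest p of the difference lay outside the list. Mst1r, a receptor tyrosine kinase, had a difference between the diets of -2.0 (SE 0.34, edgeR adjusted p = 0.0597), and Ckb, creatine kinase B, one of -1.78 (SE 0.33, edgeR adjusted p = 0.12). In the other direction, with DIO above lean, the smallest adjusted p were those of Dynlt1c, Bnip3 and AW011738, at 0.527 to 0.751. The mean log2 CPM of the osteoclast list in DIO callus was 6.07 on d5, 5.78 on d7 and 7.68 on d10, and in lean callus 6.15 on d5, 6.69 on d7 and 7.56 on d10.

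**Figure D5:**
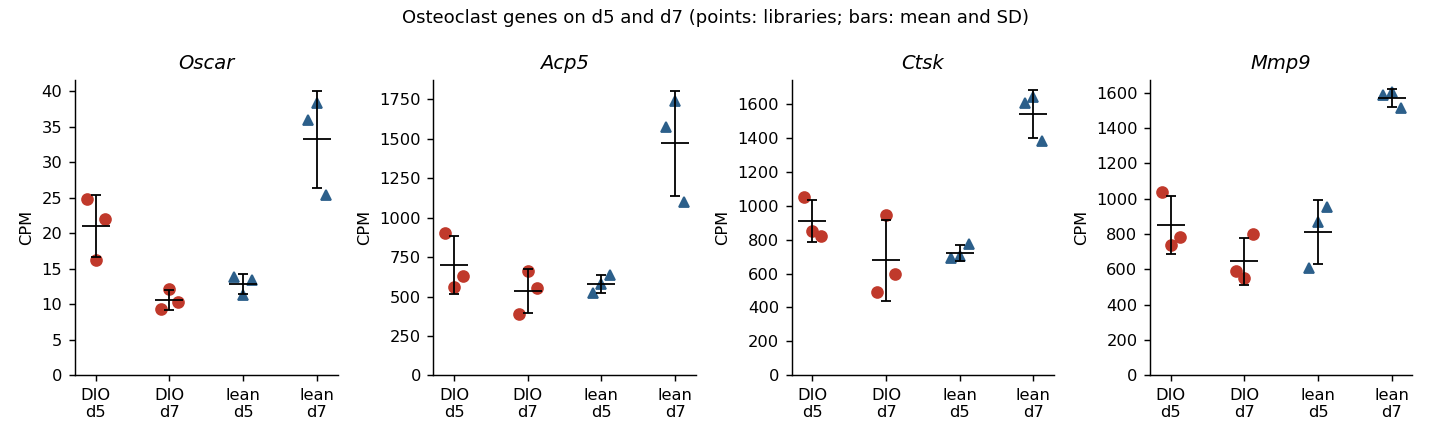
Level in CPM (y axis) of Oscar, Acp5, Ctsk and Mmp9 on d5 and d7 in DIO (circles) and lean (triangles) callus, with 1 point per library and a bar for the mean and SD of 3 libraries. The lean d7 points lie above the lean d5 points in each panel, and the DIO means of d7 lie below those of d5.

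Macrophage genes also had mostly lower means on d7. Of 29 genes 19 had a lower mean, 11 without overlap (9.03% of all genes), 0 passed the edgeR test, 10 had an unadjusted p under 0.05 (5.68%) and DESeq2 called 3 lower (0.5%). The median was -0.35 in DIO and -0.35 in lean callus. Csf1r, the receptor for the macrophage growth factor CSF1, had 285, 285 and 345 CPM on d5 and 176, 178 and 178 CPM on d7 (log2 fold change -0.78, SE 0.21, edgeR adjusted p = 0.121). Mrc1, the mannose receptor, had 43.3, 70.2 and 66.1 CPM on d5 and 30.3, 33.8 and 27.7 CPM on d7 (log2 fold change -0.97, SE 0.25, edgeR adjusted p = 0.104), and Adgre1, the macrophage antigen F4/80, 44.2, 64.1 and 65.4 CPM on d5 and 33.9, 32.6 and 29.7 CPM on d7 (log2 fold change -0.85, SE 0.24, edgeR adjusted p = 0.132). The days did not overlap for any of the 3, and the d7 libraries had almost the same Csf1r level. Ly6c2, a marker of inflammatory monocytes, went against the list at 42.1, 20.1 and 13.1 CPM on d5 and 65.7, 25.2 and 134 CPM on d7.

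Inflammatory cytokine and chemokine genes had a median of 0.03 (-0.57 without replicate 1 of d7 to 0.31 without replicate 3 of d7). Il1b, interleukin-1 beta, had 15.6, 14.5 and 26.8 CPM on d5 and 175, 61.9 and 19.8 CPM on d7 (log2 fold change 2.17, SE 0.53, edgeR adjusted p = 0.0887). Acod1, which makes itaconate in activated myeloid cells, had 2.54, 1.61 and 2.09 CPM on d5 and 88.5, 3.38 and 1.28 CPM on d7, and Ccl4, a chemokine, 2.19, 1.25 and 0.507 CPM on d5 and 25.8, 1.18 and 1.34 CPM on d7. For Acod1 and Ccl4 replicate 1 of d7 alone stood far above the other 5 libraries, and for Il1b replicate 2 of d7 was also above d5. Among genes of the interferon response the median was -0.20, and ran from -0.24 without replicate 1 of d5 to -0.019 without replicate 2 of d5. Isg15, a ubiquitin-like protein induced by interferon, stood at 3.93, 10.8 and 7.16 CPM on d5 and 17.6, 8.97 and 18.2 CPM on d7.

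Of 27 endothelial genes, 20 had a lower mean on d7, 11 without overlap (9.03% of all genes), with a median of -0.30. None passed the test (edgeR), 4 were lower at an unadjusted p under 0.05 (5.68% of all genes) and DESeq2 called 0. The median ran from -0.35 without replicate 2 of d5 to -0.15 without replicate 2 of d7. Kdr, the VEGF receptor 2, ranged over 56.6 to 77.3 CPM on d5 and 41.6 to 53.7 CPM on d7, and Pecam1, the endothelial antigen CD31, over 171 to 179 CPM on d5 and 140.5 to 180.0 CPM on d7 with overlap. Osteoblast and mineralization genes had a median of 0.02, 14 of 27 having a higher mean on d7, against 0.55 and 26 of 27 in lean callus. The DIO median ran from -0.21 without replicate 1 of d7 to 0.18 without replicate 1 of d5, so its sign rested on single libraries. The difference between the diets had an unadjusted p under 0.05 with DIO lower for 9 of the 27 genes, against 1.91% of all genes. Ibsp and Spp1, the bone matrix proteins bone sialoprotein and osteopontin, had log2 fold changes of 0.08 (SE 0.39) and -0.01 (SE 0.33). Mmp13, the collagenase of hypertrophic cartilage and bone, had 913, 699 and 656 CPM on d5 and 1217, 701 and 483 CPM on d7 (log2 fold change 0.08, SE 0.39). Bglap, osteocalcin, had 0.50 (SE 0.31), and its near-identical neighbour Bglap2 makes its counts uncertain.

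Among growth factors, Bmp6 ranged over 4.06 to 10.6 CPM on d5 and 14.3 to 27.7 CPM on d7 (log2 fold change 1.38, SE 0.29, edgeR adjusted p = 0.060) and Gdf5, which shapes joints, over 6.63 to 8.68 CPM on d5 and 14.8 to 28.8 CPM on d7 (log2 fold change 1.49, SE 0.40, edgeR adjusted p = 0.111), with a median of 0.03 over the 32 genes tested, which ran from -0.10 without replicate 1 of d7 to 0.12 without replicate 1 of d5. Of 17 Schwann cell genes tested, 10 had a higher mean on d7, 6 without overlap (35.3%, against 9.3% of all genes). A lower mean was found for 7, 3 without overlap (17.6%, against 9.03% of all genes). The median of the Schwann cell list was 0.25 and ran from -0.077 without replicate 3 of d7 to 0.41 without replicate 2 of d7. On this list S100b, which chondrocytes also express, ranged over 22.2 to 29.2 CPM on d5 and 47.5 to 61.8 CPM on d7 (log2 fold change 1.07, SE 0.20, edgeR adjusted p = 0.0525). Adipoq, the adipocyte hormone adiponectin, ranged over 1.31 to 2.54 CPM on d5 and 4.34 to 11.2 CPM on d7 (log2 fold change 1.82, SE 0.41, edgeR adjusted p = 0.0703). The adipocyte list as a whole moved less than this gene. Of its 25 genes tested, 17 had a higher mean on d7, 3 without overlap, against 9.3% of all genes. For 8 the mean was lower, 0 without overlap, against 9.03% of all genes. The adipocyte median was 0.30 and ran from 0.12 without replicate 3 of d7 to 0.68 without replicate 2 of d7.

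The medians of the 10 lists not yet described lay between -0.20 for matrix proteases and 0.17 for cell cycle genes, with 0 genes past the edgeR test. The median of matrix proteases ran from -0.30 without replicate 2 of d5 to -0.12 without replicate 3 of d7. Of 40 cell cycle genes 32 had a higher mean on d7, 3 without overlap (7.5%, against 9.3% of all genes), and the median ran from 0.079 without replicate 1 of d5 to 0.32 without replicate 1 of d7. Mki67, the proliferation antigen Ki-67, had 173, 179 and 174 CPM on d5 and 187, 243 and 319 CPM on d7 (log2 fold change 0.51, SE 0.26, edgeR adjusted p = 0.376). Of 36 genes of the respiratory chain 29 had a higher mean, 6 without overlap (9.3% of all genes), with a median of 0.14 that ran from 0.032 without replicate 1 of d5 to 0.18 without replicate 3 of d5. Ndufa2, a subunit of complex I, ranged over 118 to 126 CPM on d5 and 175 to 212 CPM on d7. Adamts15, a protease that cleaves aggrecan and versican, ranged over 19.2 to 23.2 CPM on d5 and 7.21 to 13.4 CPM on d7 (log2 fold change -0.92, SE 0.22, edgeR adjusted p = 0.0861).

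Some of these lists held genes in opposite order. Among genes of antigen presentation, with a median of 0.05, Ciita, the master regulator of MHC class II, had 6.07, 6.99 and 7.44 CPM on d5 and 1.95, 3.24 and 2.82 CPM on d7 (log2 fold change -1.36, SE 0.31, edgeR adjusted p = 0.0771). H2-DMb1, which loads peptides onto MHC class II, had 22, 16.4 and 15.9 CPM on d5 and 28.8, 26 and 35 CPM on d7 (log2 fold change 0.72, SE 0.17, edgeR adjusted p = 0.0823), so the 2 genes lay in opposite order without overlap. Cd74, the invariant chain, ranged over 192 to 246 CPM on d5 and 130.3 to 232 CPM on d7. Among complement genes, with a median of 0.10, Clu, clusterin, ranged over 51.4 to 144 CPM on d5 and 158 to 215 CPM on d7. C3ar1, the receptor for the C3a fragment on myeloid cells, ranged over 45.9 to 64.4 CPM on d5 and 23.1 to 38.8 CPM on d7. Genes of the endoplasmic reticulum had a median of 0.06, with Ddit3, the stress factor CHOP, at 18.4 to 25.4 CPM on d5 and 30.5 to 43.1 CPM on d7. WNT ligands and antagonists had a median of 0.12, with Sfrp5, a WNT antagonist, at 0.67 to 3.1 CPM on d5 and 6.74 to 11.4 CPM on d7. Skeletal progenitor genes had a median of -0.09, with Pdgfra, a growth factor receptor of mesenchymal cells, at 119 to 133 CPM on d5 and 74.8 to 103 CPM on d7. Pericyte and smooth muscle genes had a median of -0.02 and HOX genes one of -0.15.

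Of the 10 genes with the smallest p among those lower on d7, none passed the test, with adjusted p from 0.0525 to 0.0658 (edgeR). Cyp2s1, a cytochrome P450 enzyme, had 29, 22.9 and 29.4 CPM on d5 and 7.43, 13.2 and 7.46 CPM on d7 (log2 fold change -1.54, SE 0.27). Hmox1, the haem-degrading enzyme heme oxygenase 1, had 477, 414 and 561 CPM on d5 and 302, 234 and 231 CPM on d7 (-0.92, SE 0.20). Ebf2, a transcription factor of osteoprogenitors and brown fat cells, ranged over 6.47 to 9.2 CPM on d5 and 3.29 to 3.9 CPM on d7. The others were Grk3, Lhfpl2, Usp28, Adam19, Epg5 and Jcad besides Oscar, with log2 fold changes of -1.0 to -0.65. Among those higher on d7 that missed the threshold, Ffar4, the fatty acid receptor GPR120, ranged over 1.01 to 3.79 CPM on d5 and 9.05 to 11 CPM on d7 (log2 fold change 2.02, SE 0.37), Rgcc, a regulator of the cell cycle, over 32.4 to 49 CPM on d5 and 64.9 to 75.2 CPM on d7, and Slc35g1 over 8.62 to 16 CPM on d5 and 25.9 to 28.6 CPM on d7.

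Of 6 further motifs searched on both strands, the RUNX motif TGTGGT stood in 4 of 18 cartilage matrix promoters (22.2%, against 15.7% of genes tested), the SOX motif ACAATG in 1 of 18 (5.56%, against 9.32%) and the AP-1 motif TGANTCA in 1 of 18 (5.56%, against 6.81%). Among the promoters of the 3 genes that rose, 1 held the interferon-stimulated response element ISRE (33.3%, against 3.89%), and none held RUNX, SOX, AP-1, TTTGAA (cell cycle, 14.8%) or TTTCGCGC (E2F, 0.672%).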

How the data were processed

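RNA-seq of 30 callus libraries was deposited as 1 table of raw read counts per gene for 43629 Ensembl gene IDs. The authors trimmed the reads with BBDuk, aligned them to GRCm38 with HISAT2 2.1.0, keeping concordant pairs only, and counted them with HTSeq. The strand option and the annotation used for counting are not given in the sources used here. Symbols and positions were taken from GENCODE M21 (42548 IDs matched), and promoters from RefSeq.

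Groups were taken from the labels, with 3 libraries per diet and day. Genes were kept by filterByExpr, scaled by TMM and tested with the edgeR 4.0.16 quasi-likelihood test (R 4.3.3, two-sided, Benjamini-Hochberg adjustment over all genes tested, threshold 0.05). The DIO contrast was fitted on all 18 DIO libraries, the lean one on all 12 lean libraries, and the difference between the diets on the 24 libraries of d3 to d10. The SE was taken as the absolute log2 fold change divided by the square root of F. Printed CPM use TMM factors of all 30 libraries, and list means are of log2 CPM with a prior count of 2. DESeq2 1.42.0 was an alternative, as were other scalings, filters, sets of libraries, a 1.5-fold threshold and a replicate block. The pipeline was tested on simulated data. Within each of the DIO and lean groups of d5 and d7, no library was a duplicate of another. Pairs from other groups, or across groups, were not checked.

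The 6 libraries held 14888242 to 22248585 counts. P-values set each change against the spread between mice of the same diet and day, estimated from all libraries in the fit.

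The comparison, the 32 gene lists and the rule for named genes were chosen with earlier results of these data known. The rule took the genes past the threshold, the 3 members of each list with the smallest adjusted p, a set of marker genes, the 3 genes with the smallest adjusted p of the difference between the diets in each direction, and, in either direction, the 10 genes with the smallest p, a mean of at least 1 CPM and no overlap. Further glycolysis and hypoxia genes, Hbb-bt, Ly6c2, Plod2, Myh3, Myod1, Dcstamp, Ocstamp, Itgb3, Gli1, Ptch1 and the Col9 genes were chosen after their values were seen.

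Same-numbered replicates were checked for pairing by the correlation of their deviations from the group means. It was -0.0686 to 0.0947 for the 3 DIO pairs, which were not treated as paired, and 0.221 to 0.287 for the 3 lean pairs. For lean pairs of unlike number it was -0.247 to -0.0407. The block left the lean edgeR count at 0, but 1286 lean genes then had an unadjusted p under 0.05, against 926 without it. DESeq2 called 156 lean genes with the block and 33 without it. The lean values and the differences between the diets given above come from fits without the block.

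The values of some genes that the rule takes are not reported here.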

Additional observations from a re-analysis of the deposited data

Results flagged for a closer look

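Oscar was singled out because its change from d5 to d7 differed between the diets by a test of the difference itself. The log2 change in DIO minus that in lean was -2.35 (edgeR quasi-likelihood test of the interaction, adjusted p = 0.00827), with lower levels on d7 in 3 of 3 DIO libraries and higher levels on d7 in 3 of 3 lean libraries.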

How the results depend on the processing

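For DIO d7 against d5, the count of genes past the threshold was 336 with DESeq2 (251 higher, 85 lower), 341 with DESeq2 on the 6 libraries alone, 263 with DESeq2 and the replicate block, 271 with no filter but 1 count, 1 with all 30 libraries in the fit (0 higher, 1 lower) and 1 against a 1.5-fold threshold. It ranged from 0 to 236 with 1 library left out. It was 3 with the replicate block, with RLE and with upper-quartile factors. With edgeR it was 4 on the 6 libraries alone (4 higher, 0 lower) and 2 with library totals (1 higher, 1 lower). Adgrg6 and Bnip3 missed the threshold on the 6 libraries (edgeR adjusted p = 0.0786 and 0.0728). They also missed it with library totals (edgeR adjusted p = 0.0647 for each). In the fits that left out 1 library, the day with 2 libraries was assumed to vary like the other days. Over 19 settings, 2610528A11Rik passed in 15, Adgrg6 in 12 and Bnip3 in 11. Of these genes, 2610528A11Rik was tested in the main fit only because it was high on d7. The lean count was 33 with DESeq2, 111 with DESeq2 on the 6 libraries, 156 with DESeq2 and the replicate block, 2 with all 30 libraries and 0 to 1 with 1 library left out. The count of genes whose change differed between the diets was 2 with upper-quartile factors or library totals, 13 with DESeq2, 14 with DESeq2 and the replicate block, 3 with no filter and 0 to 5 with 1 library left out.

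Library totals in place of TMM moved the median of all genes to -0.12. The list medians then became -0.023 for WNT genes, -0.43 for endothelial, -0.16 for pericyte, 0.31 for glycolysis and hypoxia, -0.079 for endoplasmic reticulum, 0.013 for collagen processing, 0.091 for glycosaminoglycan synthesis, -0.029 for complement and -0.28 for HOX genes, each lower than with TMM. With the replicate block the pericyte median was -0.081. With 1 library left out, the medians ranged from 0.033 to 0.21 for WNT, -0.22 to 0.17 for MHC class II, 0.35 to 1.10 for T and NK cell, 0.095 to 1.43 for B cell, 1.77 to 4.03 for erythroid, -0.35 to -0.15 for endothelial, -0.28 to 0.081 for pericyte, 0.12 to 0.68 for adipocyte, -0.077 to 0.41 for Schwann cell, 0.37 to 0.48 for glycolysis and hypoxia, -0.051 to 0.17 for endoplasmic reticulum, 0.15 to 0.24 for glycosaminoglycan, -0.25 to -0.061 for progenitor, -0.00052 to 0.11 for complement and -0.23 to -0.030 for HOX genes.

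Of the named genes, 7 changed sign, none of which passed the test. Library totals gave -0.056 for Ibsp and -0.052 for Mmp13, upper-quartile factors 0.0012 for Spp1, and the replicate block 0.13 for Acta1 with edgeR and with DESeq2. With 1 library left out the log2 fold change ranged from -0.077 to 3.42 for Ccl4, -0.21 to 0.23 for Ibsp, -0.36 to 0.25 for Spp1, -0.35 to 0.34 for Mmp13, -0.15 to 0.095 for Ptprc, -0.40 to 0.24 for Acta1 and -0.21 to 0.17 for Vegfa. Library totals, DESeq2 with the replicate block and DESeq2 on 6 libraries were added after the data had been seen. The cause of these differences was not tested. With 3 mice per day, calls of genes near the threshold depended on single libraries.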
